A study of Mus musculus with 36 samples.

Results

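Inguinal fat, the subcutaneous depot of the groin, was compared between female (XX) mice given the mitochondrial complex I inhibitor CP2 and female mice given vehicle. The comparison held 7 of the 36 libraries of the study, picked by the tissue, sex and treatment in their labels. All animals were aged wild-type C57BL/6 mice. CP2 was dosed at 25 mg/kg/day through drinking water that held 0.1% PEG, beginning at an age of 21 months. The controls drank 0.1% PEG alone, and the series gives 26 months as the age at profiling. The CP2 group was libraries s454, s664 and s451 (n = 3) and the vehicle group libraries s442, s463, s643 and s443 (n = 4), and values given per library follow that order. Inguinal fat of male (XY) mice of the same strain, age and dose (4 CP2 and 5 vehicle libraries) was fitted in the same model, where it shares the estimate of the spread behind every error and p given here, and served to test whether the CP2 effect differed between the sexes. The 7 libraries carry different sample numbers, but the labels do not state that each number is an animal of its own. The p-values therefore rest on library-to-library spread that could be partly technical.

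Complex I takes electrons from NADH and is the entry point of the respiratory chain, which complexes II to V complete by passing electrons to oxygen and making ATP. White adipocytes store triglyceride, break it down by lipolysis and make new fatty acids, while beige adipocytes in the same depot oxidise fatty acids and release heat through the uncoupling protein UCP1. In female mice the inguinal depot also holds the mammary gland, and a lymph node and body wall muscle lie in or beside it.

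The 7 libraries held 35 to 45.9 M counts, and the 10 highest genes took 7.06% to 14.9% of them. Levels are given in CPM, counts scaled to a common library size. The X-inactivation RNA Xist had 1155 to 1701 CPM in the 7 libraries and 0.0828 to 6.66 CPM in the male ones. Adipocyte genes were high in every library, with a summed level of 80740, 51990 and 57290 CPM with CP2 and 69900, 32070, 68370 and 35820 CPM with vehicle. Milk protein genes summed to 108800 CPM, 10.9% of all counts, in vehicle library s443 and to 608.8 to 2066 CPM in the other 6. Skeletal muscle genes summed to 11620 CPM in CP2 s451 and 11350 CPM in vehicle s643, to 36.55 and 88.4 CPM in vehicle s443 and s442, and to 1004 to 2260 CPM in the other 3. T and NK cell genes ranged from 55.79 CPM in CP2 s454 to 663.1 CPM in vehicle s463, and B and plasma cell genes from 439.9 to 2655 CPM in the same libraries. The first principal component, with 39.4% of the variance, had immunoglobulin genes and muscle genes such as Myh4 among its leading genes and did not part the groups. In bulk tissue, fewer cells of a type and less RNA per cell cannot be told apart.

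**Figure D1:**
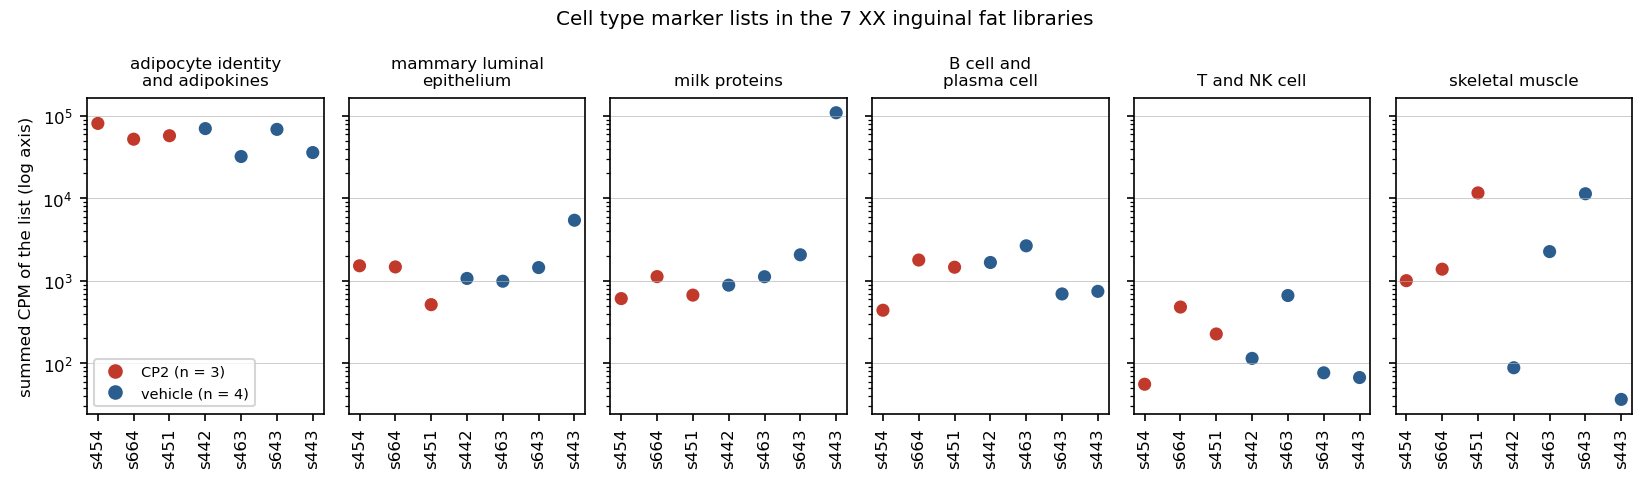
Summed CPM of 6 marker lists (log axis) in the 3 CP2 (red) and 4 vehicle (blue) libraries, 1 point per library. Milk protein genes reach 108800 CPM in vehicle s443 alone, skeletal muscle genes range from 36.55 to 11620 CPM, and no list parts the groups.

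No gene passed the threshold. edgeR called 0 of 19769 genes (0%) at a Benjamini-Hochberg adjusted p of 0.05, and the smallest adjusted p was 0.9999, so every difference below is a measured value that missed the test. Genes with an unadjusted p under 0.05 numbered 269 on the higher side (1.36%) and 191 on the lower (0.966%), or 460 in all, while 5% of the genes tested is 988.45. The count was 210 without vehicle s443, 224 without CP2 s451, 297 without CP2 s454 and 779 without CP2 s664. All 3 CP2 libraries lay above all 4 vehicle libraries for 405 genes (2.05%) and below them for 307 (1.55%). With no treatment effect, the groups would lie apart, on either side, with a probability of 0.0571 per gene. Of all genes 42.1% had a log2 change above 0, and the median was -0.05. The biological coefficient of variation was 0.5 over 12 residual degrees of freedom. Treatment also ran close to the L number in the library titles, whose meaning is not stated, since vehicle s442 was the only control that shared an L number with a CP2 library.

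Fatty acid oxidation genes were mostly higher with CP2. Of 27 genes of lipolysis and fatty acid oxidation, 25 had a log2 change above 0, with a median of 0.45. Of the list 8 reached an unadjusted p under 0.05, all higher, against 1.36% of all genes on that side. In 7 (25.9%, against 2.05% of all genes) every CP2 library lay above every vehicle one. The list median was 0.325 to 0.574 under the 16 alternatives tried. Ppara encodes the nuclear receptor that switches on fatty acid oxidation genes (ENSMUSG00000022383, mm10 chromosome 15, 85734983 to 85802819). It was at 17.4, 10.7 and 45.3 CPM with CP2 and at 7.11, 7.63, 8.19 and 3.97 CPM with vehicle. Every CP2 library was above every vehicle library, with s451 the highest, and the log2 change was 1.86 ± 0.47 (unadjusted p = 0.00129). Without CP2 s451 it was 1.04.

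Acadvl, the acyl-CoA dehydrogenase for very long chains, was at 311, 304 and 459 CPM with CP2 and 211, 204, 245 and 182 CPM with vehicle. Its groups did not overlap, and its log2 change was 0.77 ± 0.22. Acadl, the long-chain dehydrogenase, differed by 0.64 ± 0.24, Cpt2, which frees acyl groups from carnitine inside the mitochondrion, by 0.63 ± 0.23, and Echs1, an enoyl-CoA hydratase, by 0.61 ± 0.24, each without overlap. Cpt1b, the muscle form of the carnitine transferase on the outer membrane, was at 6.29, 13.0 and 78.1 CPM with CP2 and 3.50, 8.30, 48.1 and 3.197 CPM with vehicle (1.04 ± 0.89). Its highest library in each group, s451 and s643, was also the highest for skeletal muscle genes, and the part of muscle in these values was not tested gene by gene. With a skeletal muscle score as a covariate the list median was 0.386. The lipases lay closer to their spread: Pnpla2, which starts triglyceride breakdown, was at 3029, 1478 and 1802 CPM against 2273, 1003, 1704 and 1011 CPM (0.49 ± 0.34), and Lipe, the hormone-sensitive lipase, differed by 0.45 ± 0.35. Both overlapped between the groups, and without CP2 s454 the log2 change was 0.111 for Pnpla2 and 0.0341 for Lipe.

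**Figure D2:**
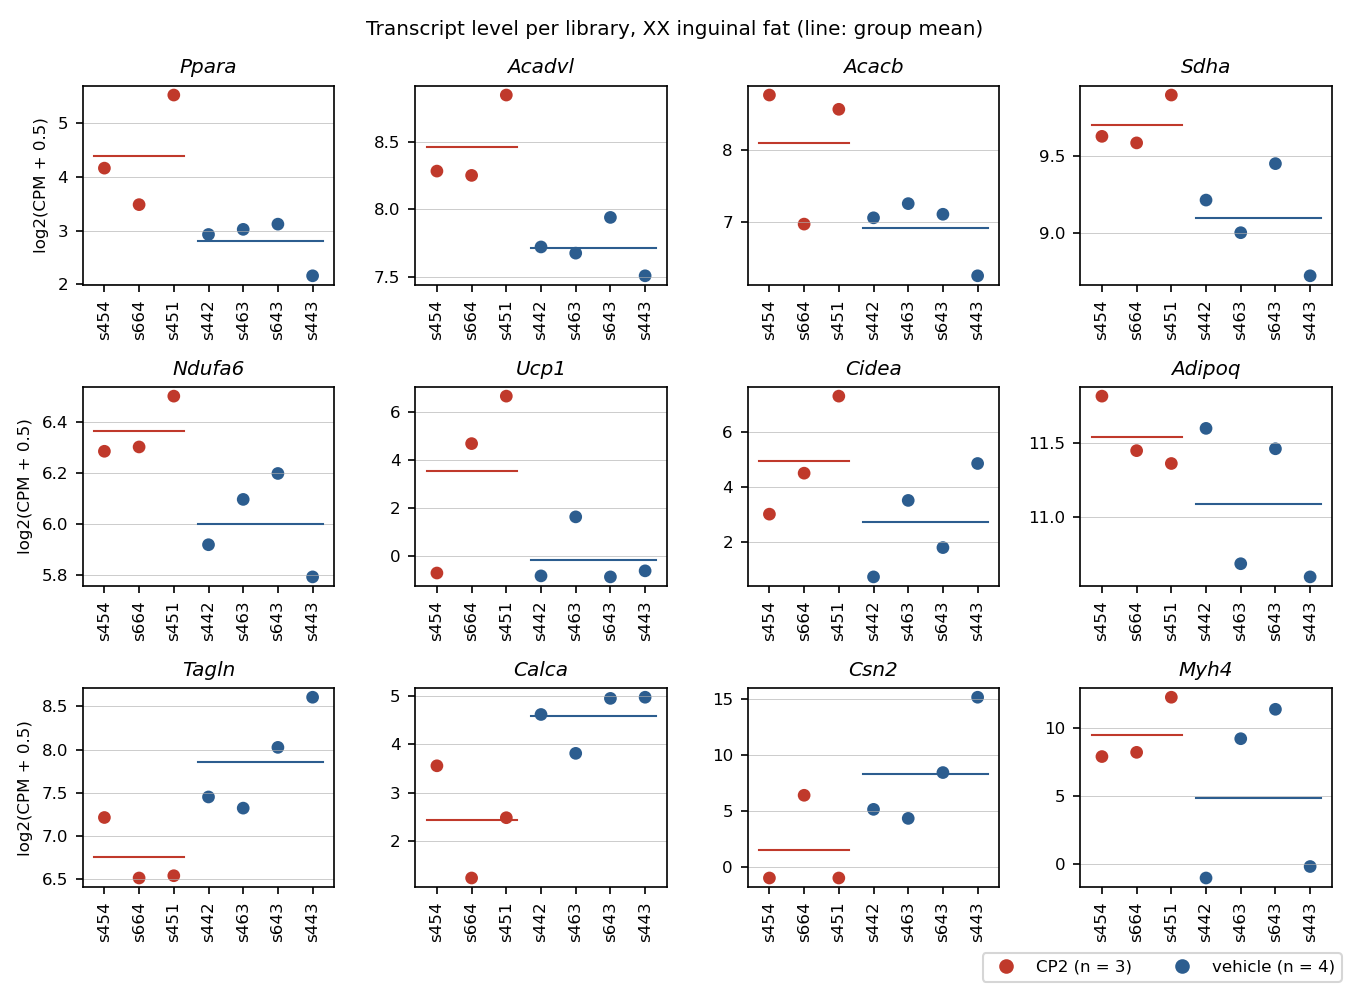
Level of 12 genes in log2(CPM + 0.5), 1 point per library, with CP2 in red (n = 3), vehicle in blue (n = 4) and a line at each group mean. Ppara, Acadvl, Sdha and Ndufa6 have all CP2 libraries above all vehicle ones, Tagln and Calca all below, and the other 6 overlap, with Ucp1 high in s664 and s451 and not in s454.

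Nuclear-encoded respiratory chain subunits, which include those of the complex that CP2 inhibits, leaned higher by small amounts. Of 36 complex I subunits 34 were above 0 with a median log2 change of 0.235. In 2 of them (5.56%, against 2.05% of all genes) the groups did not overlap. Ndufa6, an accessory subunit, was at 77.5, 78.4 and 90.1 CPM with CP2 and 60.0, 67.9, 72.9 and 54.9 CPM with vehicle, a log2 change of 0.36 ± 0.12 without overlap. Ndufv1, the NADH-binding subunit, was at 160, 130 and 168 CPM against 122, 91.6, 142 and 102 CPM (0.41 ± 0.20), with CP2 s664 below vehicle s643. Ndufs1, the largest iron-sulphur subunit, was at 193, 232 and 284 CPM against 150, 174, 245 and 141 CPM (0.41 ± 0.27), also with overlap. The 14 measured assembly factors of complex I had 11 above 0 and a median of 0.105.

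Of 39 subunits of complexes II to V, 38 were above 0 with a median of 0.282. In 7 of them (17.9%, against 2.05% of all genes) all CP2 libraries lay above all vehicle ones. Sdha, the flavoprotein of complex II, was at 789, 766 and 948 CPM with CP2 and 594, 513, 698 and 424 CPM with vehicle. Its groups did not overlap and its log2 change was 0.58 ± 0.23. The complex III subunits Uqcrfs1, the Rieske protein (0.59 ± 0.23), and Cyc1, cytochrome c1 (0.56 ± 0.25), likewise did not overlap. Cox6a1, a subunit of complex IV, was at 167, 118 and 146 CPM against 121, 87.8, 119 and 85.8 CPM (0.48 ± 0.24), with CP2 s664 just below vehicle s442 and s643. The TCA cycle, which supplies NADH to complex I, had 17 of 18 genes above 0 and a median of 0.45. It had 5 genes (27.8%, against 2.05% of all genes) with CP2 above vehicle without overlap. Among them Idh3b, a subunit of isocitrate dehydrogenase, was at 246, 225 and 309 CPM with CP2 and 177, 168, 214 and 136 CPM with vehicle (0.58 ± 0.19), and Dlst of the oxoglutarate dehydrogenase complex differed by 0.48 ± 0.19.

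Mitochondrial ribosome, protein quality control and biogenesis genes had smaller medians than the respiratory chain subunits. The mitochondrial ribosome had 27 of 30 genes above 0 with a median of 0.133, and protein quality control 19 of 20 with a median of 0.219, among them Afg3l2, an inner membrane protease subunit (0.38 ± 0.12, no overlap). Biogenesis and AMPK genes had 16 of 21 above 0 and a median of 0.0885. Ppargc1a, the coactivator that drives mitochondrial biogenesis, was at 19.1, 18.9 and 31.4 CPM with CP2 and 16, 13.9, 20.5 and 7.87 CPM with vehicle (0.67 ± 0.39), and its relative Ppargc1b differed by 0.92 ± 0.27. Both overlapped. All 20 genes of branched-chain amino acid breakdown were above 0, with a median of 0.441. Of these 6 (30%, against 2.05% of all genes) had no overlap, although none reached an unadjusted p under 0.05. Bcat2, which takes the amino group off these amino acids in mitochondria, was at 178, 189 and 166 CPM against 121, 93.8, 116 and 69.6 CPM (0.82 ± 0.42). The 37 genes encoded in the mitochondrial genome had 0 counts in all libraries of the deposited table, so the subunits made inside the organelle were not compared.

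These mitochondrial medians were smaller with the skeletal muscle score as a covariate, at 0.13 for complex I, 0.168 for complexes II to V and 0.293 for the TCA cycle. CP2 s451 and vehicle s643 held the most muscle RNA, with s451 higher by summed CPM and s643 by the score (8.5 and 9.25). Without s451 the medians were 0.181, 0.218 and 0.308, and without s643 they were 0.372, 0.387 and 0.595. Without vehicle s443 they were 0.22, 0.255 and 0.403. Under the 16 alternatives the medians of complex I, complexes II to V, the TCA cycle, the mitochondrial ribosome, fatty acid oxidation and branched-chain amino acid breakdown were above 0 each time. The adipocyte marker list was also higher with CP2 by a median of 0.346, and the part of adipocyte content in the mitochondrial values was not tested.

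The 300 bases around the RefSeq start sites of the listed genes were searched on both strands for 2 elements. The window ran from 250 before to 50 after the start, and 593 of 757 listed genes were matched. The core of the element of nuclear respiratory factor 1, a known regulator of respiratory chain genes, was searched as GCGCATGCG. It occurred for 1.95% of 27018 RefSeq genes. Among the matched genes it occurred for 6 of 31 subunits of complexes II to V (19.4%), 2 of 32 complex I subunits (6.25%), 3 of 12 complex I assembly factors (25%), 4 of 21 oxidation genes (19%), 4 of 26 mitochondrial ribosome genes (15.4%) and 1 of 16 TCA cycle genes (6.25%). GCGCATGCG occurred for 0 of 18 lipogenic and 0 of 13 thermogenic genes, 2 lists described below that also leaned higher. Of lists with medians near 0, cholesterol synthesis had 1 of 16 (6.25%), the integrated stress response 1 of 20 (5%) and antioxidant genes 0 of 16. TCAAGGTCA, the element of the estrogen-related receptors, occurred for 0.466% of all genes and for Sdhd and Atp5g3 in complexes II to V. In complexes II to V the first element also occurred for Uqcrc1, Uqcr11, Atp5k, Atp5l and Atp5g2, with log2 changes of 0.42, 0.20, 0.18, 0.12 and 0.00516. In complex I it occurred for Ndufa8 (0.18) and Ndufa11 (-0.15). Whether the element goes with the CP2 change was not tested. Ppara and Cox6a1 are shown as 1 oxidation gene and 1 respiratory chain gene that hold it, picked after the search (GRCm38.p6, the 250 bases before the start site). The Ppara window lies at chr15:85735526-85735775 on the plus strand with its first match 31 bases before the start, and that of Cox6a1 at chr5:115348959-115349208 on the minus strand with its first match 162 bases before the start. In both the element matched on both strands, and the capitals run over the 2 overlapping matches. A match describes the sequence, and no binding was measured.
Ppara: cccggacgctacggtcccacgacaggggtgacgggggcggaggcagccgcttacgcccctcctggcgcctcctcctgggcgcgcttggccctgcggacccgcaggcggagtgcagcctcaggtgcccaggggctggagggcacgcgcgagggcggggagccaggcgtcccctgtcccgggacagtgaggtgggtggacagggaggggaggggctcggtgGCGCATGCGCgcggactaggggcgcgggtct
Cox6a1: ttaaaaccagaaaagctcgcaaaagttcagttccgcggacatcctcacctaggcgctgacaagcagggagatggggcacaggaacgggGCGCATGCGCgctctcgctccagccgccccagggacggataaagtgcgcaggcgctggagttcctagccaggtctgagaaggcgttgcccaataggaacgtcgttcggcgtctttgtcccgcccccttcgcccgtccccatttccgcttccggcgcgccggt

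Lipid synthesis genes were split. Of 24 lipogenic genes 18 were above 0 with a median of 0.444. In 5 (20.8%, against 2.05% of all genes) CP2 lay above vehicle without overlap. Without CP2 s454 the median was 0.123. Acacb makes the malonyl-CoA that holds back carnitine transfer, and it was at 431, 125 and 376 CPM with CP2 and 133, 152, 138 and 76.1 CPM with vehicle. CP2 s664 lay among the vehicle libraries and the log2 change was 1.32 ± 0.37 (unadjusted p = 0.00317). Dgat1, which makes triglyceride, was at 348, 269 and 221 CPM against 181, 173, 179 and 109 CPM (0.80 ± 0.28) without overlap. Lpin1, a phosphatidate phosphatase, was at 1099 CPM in CP2 s454 and at 252 and 416 CPM in the other CP2 libraries (0.96 ± 0.43, with overlap), and its log2 change was 0.122 without s454.

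Fasn, the fatty acid synthase, was at 667, 778 and 898 CPM with CP2 and 239, 220, 527 and 655 CPM with vehicle. These groups did not overlap, and the log2 change was 0.93 ± 0.82. Acly, which makes cytosolic acetyl-CoA, was at 176, 177 and 202 CPM against 171, 177, 160 and 403 CPM (-0.30 ± 0.92), with vehicle s443 apart. Scd1, the stearoyl-CoA desaturase, ranged from 6046 to 48500 CPM with CP2 and from 13190 to 39460 CPM with vehicle (-0.02 ± 0.78). Cholesterol synthesis genes had 10 of 22 above 0 and a median of -0.04.

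Thermogenic genes leaned higher with CP2, with a wide spread between the CP2 libraries. Ucp1, the uncoupling protein of brown and beige adipocytes (ENSMUSG00000031710, mm10 chromosome 8, 83290348 to 83298456), was at 0.114, 25.2 and 100.6 CPM with CP2 and at 0.0656, 2.61, 0.0495 and 0.154 CPM with vehicle. CP2 s454 lay in the vehicle range, so the groups overlapped, and the log2 change was 5.86 ± 1.69 (unadjusted p = 0.00379). It was 4.13 without CP2 s451 and 8.81 without vehicle s463. Cidea, a lipid droplet protein of brown fat, was at 7.55, 22.1 and 157 CPM against 1.16, 10.9, 2.97 and 28.3 CPM (2.52 ± 1.01), with overlap and 0.415 without CP2 s451.

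Slc27a2, a fatty acid transporter, was at 1.94, 3.11 and 20.6 CPM with CP2 and 1.27, 0.840, 0.322 and 0.794 CPM with vehicle (3.40 ± 0.89, unadjusted p = 0.00182, no overlap, and 1.61 without CP2 s451). Kcnk3, a potassium channel of brown adipocytes, was at 16.2, 13.0 and 35.6 CPM against 7.59, 10.9, 8.31 and 6.11 CPM (1.39 ± 0.43, no overlap, and 0.811 without CP2 s451), and Letmd1 of the inner mitochondrial membrane differed by 0.60 ± 0.18 without overlap. CP2 s451 was the highest library for all of these genes and also for the summed CPM of skeletal muscle genes, where vehicle s643 was close. With the skeletal muscle score as a covariate the median of the thermogenic list was 0.363. Of the 20 thermogenic genes 14 were above 0, with a median of 0.475. Of the list 6 had an unadjusted p under 0.05, all higher, against 1.36% of all genes on that side. In 4 (20%, against 2.05% of all genes) there was no overlap. The median ran from 0.279 without CP2 s451 to 1.06 without vehicle s463 and reached 1.46 with the L number as a factor. Dio2 and Prdm16, the deiodinase and the transcriptional regulator of beige fat, were at -0.17 and -0.22.

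**Figure D3:**
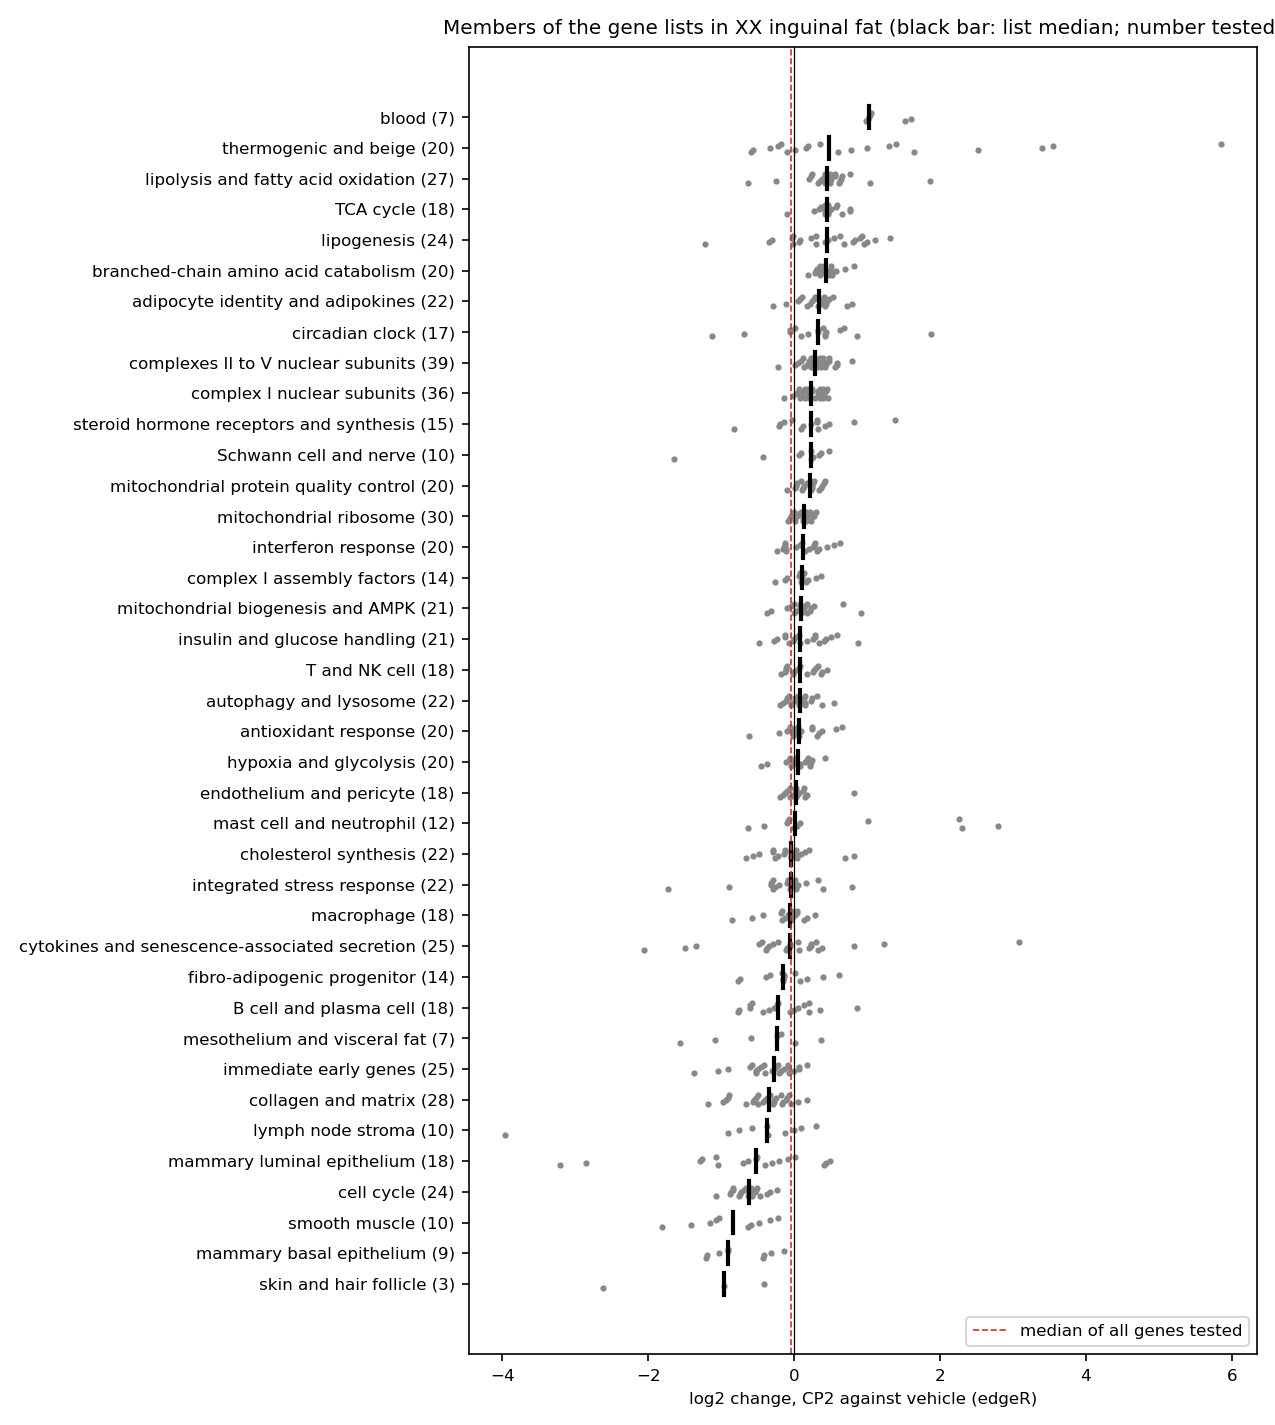
Log2 change (edgeR, CP2 against vehicle) of every tested member of 39 lists, as 1 grey point per gene with a black bar at the list median, sorted by median. Blood, thermogenic, fatty acid oxidation, TCA cycle, lipogenic and branched-chain amino acid lists lie to the right of the dashed median of all genes (-0.05), and cell cycle, smooth muscle and mammary basal lists to the left. Milk protein and skeletal muscle lists are left out for scale.

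Adipocyte identity genes had 20 of 22 above 0 and a median of 0.346, and no member separated the groups. Adipoq, the adiponectin gene, was at 3620, 2797 and 2632 CPM with CP2 and 3108, 1638, 2822 and 1539 CPM with vehicle (0.41 ± 0.30). Vehicle s463 and s443, the libraries rich in lymphoid and in milk transcripts, were the low ones. Cfd, the adipokine adipsin, differed by 0.79 ± 0.35, and Adig, the small adipocyte protein adipogenin, by 0.53 ± 0.24. Pparg, the master regulator of adipocytes, was at 313, 185 and 320 CPM against 320, 148, 219 and 142 CPM (0.39 ± 0.34).

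Lep, the leptin gene, was at 2008, 217 and 1005 CPM with CP2 and 1577, 276, 2581 and 838 CPM with vehicle (-0.29 ± 0.86), with each group spread over most of the range of the other. The adipocyte median was 0.112 without CP2 s454, 0.11 without vehicle s463, 0.178 without vehicle s443 and 0.0142 with the L number as a factor. Insulin and glucose genes had 13 of 21 above 0 and a median of 0.0773. Slc2a4, the insulin-responsive glucose transporter, was at 251, 167 and 207 CPM against 156, 106, 242 and 83.6 CPM (0.50 ± 0.46). Pck1, which feeds glycerol synthesis in fat, was at 5915, 2629 and 3826 CPM against 4647, 2160, 2938 and 2148 CPM (0.47 ± 0.38, and 0.0997 without CP2 s454). All of these overlapped.

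Stress programmes had list medians close to 0, while single genes such as Slc7a5 and Sod1 separated the groups. Of 22 genes of the integrated stress response, which mitochondrial dysfunction can switch on, 8 were above 0 with a median of -0.05. Atf4, its transcription factor, was at 206, 116 and 139 CPM with CP2 and 171, 136, 157 and 152 CPM with vehicle, a log2 change of -0.00449 ± 0.1999. The mitokines Fgf21 and Gdf15 were below 1 CPM in every library, at 0.0793 to 0.732 against 0.105 to 0.984 CPM and at 0.0991 to 0.303 against 0.126 to 0.284 CPM. Slc7a5, an amino acid transporter and target of the pathway, was at 10.5, 14.6 and 11.9 CPM against 18.6, 21.9, 18.6 and 104.1 CPM (-1.73 ± 0.74, no overlap, and -0.678 without vehicle s443). Of 20 antioxidant genes 14 were above 0 with a median of 0.0597. In 2 (10%, against 2.05% of all genes) every CP2 library lay above every vehicle one. Sod1, the cytosolic superoxide dismutase, was at 396, 327 and 308 CPM against 266, 210, 265 and 182 CPM (0.58 ± 0.17, no overlap), while Nqo1, a quinone reductase, differed by -0.61 ± 0.23.

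Immediate early genes, which respond within minutes to handling as well as to signals, had 4 of 25 above 0 and a median of -0.28. Fos was at 15.95, 12.5 and 11.1 CPM with CP2 and 30.2, 10.1, 19.1 and 39.1 CPM with vehicle (-0.90 ± 0.66), and Egr2 differed by -1.37 ± 0.52, both with overlap. Clock genes had 13 of 17 above 0 and a median of 0.332, which was 0.0302 without CP2 s454. Dbp, a clock output factor, was at 35.1, 27.4 and 23.1 CPM against 17.5, 16.4, 19.1 and 9.72 CPM (0.87 ± 0.45, no overlap). Tef, a factor of the same family, differed by 0.68 ± 0.35, and Ciart, a clock repressor, by 1.87 ± 0.89 with 9.77 CPM in CP2 s454 and 0.656 to 2.05 CPM in the other 6 libraries. Without s454 the log2 change was 0.397 for Ciart and 0.32 for Tef. The labels used here give no time of day for the collection of the tissue.

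Smooth muscle and matrix genes were lower with CP2. All 10 smooth muscle genes were below 0 with a median of -0.83. Of them 4 had an unadjusted p under 0.05, against 0.966% of all genes on that side. Tagln, the actin-binding protein transgelin, was at 148, 90.7 and 92.4 CPM with CP2 and 174, 159, 260 and 389 CPM with vehicle. Its groups did not overlap and its log2 change was -1.16 ± 0.34 (unadjusted p = 0.00449). Cnn1, calponin, differed by -1.41 ± 0.52 and Myh11, the smooth muscle myosin, by -1.08 ± 0.43, both with overlap. Acta2, smooth muscle actin, which mammary basal cells also make, was at 439, 138 and 312 CPM against 822, 195, 542 and 863 CPM (-1.03 ± 0.65). Vehicle s443, with the most milk transcripts, was the highest library for Tagln, Myh11, Cnn1 and Acta2. The smooth muscle median was -0.615 without it and -0.707 with mammary and lymphoid scores as covariates. In that covariate fit Cnn1 was at -0.712, Myh11 at -0.474, Tagln at -0.843 and Acta2 at -1.03. The part of mammary basal cells in the smooth muscle values was not tested.

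Of 28 collagen and matrix genes 26 were below 0 with a median of -0.35, which was -0.249 without vehicle s443. Col1a1, a chain of type I collagen, was at 123, 103 and 63.5 CPM with CP2 and 127, 148, 135 and 327 CPM with vehicle (-0.93 ± 0.70). These groups did not overlap, with CP2 s454 and vehicle s442 close together. Postn, the matrix protein periostin, differed by -0.89 ± 0.42 with overlap. All 24 cell cycle genes were below 0 with a median of -0.62, none at an unadjusted p under 0.05. Aurka, a mitotic kinase, was at 1.81, 3.23 and 2.29 CPM against 2.16, 4.75, 2.05 and 6.11 CPM (-0.62 ± 0.47), and Mcm6, of the replication helicase, was highest in vehicle s443 at 98.1 CPM (-0.63 ± 0.53). Without that library the values were -0.286 for Aurka and -0.148 for Mcm6. The cell cycle median was -0.08 without vehicle s443, 0.0501 with limma-voom and 0.585 with the L number as a factor, so its sign did not hold.

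Mammary transcripts followed 1 vehicle library. Csn2, the beta casein of milk, was at 0, 83.1 and 0 CPM with CP2, where 0 counts allow up to 0.0686 and 0.0826 CPM in s454 and s451 (3 counts, counting error only). It was at 34.5, 19.5, 340.9 and 36140 CPM with vehicle, a log2 change of -8.36 ± 3.35. Csn3, kappa casein, was at 61.9, 213 and 15.1 CPM against 132, 124, 305 and 8147 CPM (-4.49 ± 1.69), and Wap, whey acidic protein, was at 2958 CPM in s443 and at most 101 CPM elsewhere (-8.25 ± 2.75). All 11 milk genes were below 0, and the median of -5.94 was -0.887 without s443, where Csn2 was at -2.29, Csn3 at -0.982 and Wap at -3.83. Luminal epithelial genes had 4 of 18 above 0, with a median of -0.52 that was -0.00297 without s443. The defining luminal keratin Krt8 was at 143, 89.2 and 34.8 CPM against 65.4, 67.9, 106 and 201 CPM (-0.30 ± 0.98). Elf5, a factor of secretory mammary cells, and Wfdc18 differed by -2.86 ± 1.17 and -3.22 ± 1.18, both highest in s443 and at -0.463 and -0.35 without it. All 9 measured mammary basal genes were below 0 with a median of -0.91, and -0.633 without s443.

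Immune and muscle markers varied between libraries of the same group. Cd3e, of the T cell receptor complex, was at 2.08, 17.8 and 7.47 CPM with CP2 and 4.04, 21.8, 3.69 and 2.73 CPM with vehicle (0.18 ± 1.31). The list medians were -0.23 for B and plasma cells (6 of 18 above 0) and 0.0768 for T and NK cells (11 of 18), and -0.05 for macrophages (6 of 18). Under the alternatives the B and plasma cell median ran from -0.509 without CP2 s664 to 1.23 without vehicle s463. The T and NK cell median ran from -0.808 without CP2 s664 to 1.43 without vehicle s463 and 1.78 with the L number as a factor, so neither sign held. Adgre1, the macrophage antigen F4/80 listed as Emr1 in the table, was at 75.9, 63.4 and 69.9 CPM against 61.6, 91.8, 51.2 and 109.2 CPM (-0.17 ± 0.37). Myh4, a fast skeletal muscle myosin, was at 241, 298 and 4932 CPM with CP2 and 0, 597, 2670 and 0.397 CPM with vehicle (1.16 ± 2.49), where 0 counts in s442 allow up to 0.0656 CPM. The skeletal muscle list had 11 of 14 genes above 0 and a median of 0.135, which ran from -1.52 without CP2 s451 to 4.95 with the L number as a factor.

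The remaining lists had medians near their library spread. Blood genes had 7 of 7 above 0 and a median of 1.03, which was -0.242 without CP2 s451, where their summed level was 3381 CPM against 357.3 to 1418 CPM in the other 6 libraries. Schwann cell and nerve genes had 8 of 10 above 0 (median 0.232), steroid receptor and synthesis genes 10 of 15 (0.233), autophagy and lysosome genes 15 of 22 (0.0744), interferon genes 13 of 20 (0.124) and hypoxia and glycolysis genes 13 of 20 (0.0482). Endothelial and pericyte genes had 12 of 18 above 0 (0.0225), and mast cell and neutrophil genes 6 of 12 (0.0151). Lower medians were found for cytokine and senescence genes with 11 of 25 above 0 (-0.06), fibro-adipogenic progenitor genes with 5 of 14 (-0.15), mesothelial genes with 2 of 7 (-0.23), lymph node stroma genes with 3 of 10 (-0.37) and skin genes with 0 of 3 (-0.96). No member of any of the 41 lists passed the threshold.

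Among all genes, those with the smallest unadjusted p on the higher side were Adtrp, Ppara, Ido1, Slc27a2, Nat8l, Ccdc176, Mrps35, Cnst, Acacb and Acadvl. Adtrp, an enzyme that splits branched fatty acid esters, was at 15.2, 16.4 and 32.4 CPM with CP2 and 8.55, 9.39, 10.5 and 5.84 CPM with vehicle. Its groups did not overlap and its log2 change was 1.31 ± 0.32 (unadjusted p = 0.000968). Nat8l, which makes N-acetylaspartate and feeds acetyl groups to lipid synthesis, was at 137, 153 and 147 CPM against 83.4, 78.0, 72.4 and 42.0 CPM (1.08 ± 0.29, no overlap). Mrps35, of the small mitochondrial ribosomal subunit, was at 30.5, 29.8 and 30.6 CPM against 23.0, 23.2, 24.0 and 22.9 CPM, so its change of 0.38 ± 0.11 was small but its groups lay apart. Ido1, which breaks down tryptophan, rested on CP2 s454 at 88.7 CPM and was at 6.98 and 12.4 CPM in the other CP2 libraries and 0.861 to 7.98 CPM with vehicle (3.42 ± 0.89, and 1.5 without s454). Ccdc176 (0.66 ± 0.18) did not overlap and Cnst (0.55 ± 0.15) did.

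On the lower side they were Calca, Traip, Lao1, Tagln, Alx4, Ighv1-76, Ighv14-4, Eogt, Fkbp11 and Arl5b. Calca, which encodes calcitonin and the neuropeptide CGRP, was at 11.3, 1.86 and 5.10 CPM with CP2 and 24.0, 13.6, 30.3 and 30.8 CPM with vehicle. Its groups did not overlap and its log2 change was -2.02 ± 0.51 (unadjusted p = 0.00127). Traip, a ubiquitin ligase of DNA replication, was at 3.55, 2.88 and 2.67 CPM against 6.76, 5.06, 7.001 and 7.36 CPM (-1.11 ± 0.32), and Alx4, a homeobox factor, differed by -1.14 ± 0.34, both without overlap. Arl5b, a small GTPase, was at 31.3, 31.4 and 30.4 CPM against 39.4, 38.2, 40.2 and 41.5 CPM (-0.36 ± 0.12), also without overlap. Eogt, a glycosyltransferase, differed by -0.56 ± 0.18 with overlap.

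The others in that set followed single libraries or antibody segments. Lao1, an amino acid oxidase found in milk, was at 667.8 CPM in vehicle s443 and 0.358 to 5.10 CPM in the other 6 libraries (-7.95 ± 2.36), and Fkbp11, a folding enzyme of secretory cells, was at 52.3 CPM there against 1.92 to 5.04 CPM (-2.61 ± 0.83). Without s443 the log2 change of Lao1 was -1.67 and that of Fkbp11 -0.65. The immunoglobulin segment Ighv1-76 was at 834.8 CPM in vehicle s463 (-6.58 ± 2.02, and -2.85 without it), and Ighv14-4 was at 6.09 to 11.96 CPM with CP2 and 143, 161, 112 and 12.3 CPM with vehicle (-3.44 ± 1.07). Reads of near-identical segments can be split between copies, so these 2 are uncertain.

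The CP2 effect was then tested for a difference between female and male fat. No gene passed (0 of 19769, 0%), and 769 reached an unadjusted p under 0.05 (3.89%), against 2 genes called (0.0101%) and 2837 at an unadjusted p under 0.05 (14.4%) in males. The 2 genes called in males were Pdk1, which holds back pyruvate entry into the TCA cycle, and Msrb1, a methionine sulphoxide reductase. Pdk1 was at 77.6, 77.8 and 84.7 CPM in female CP2 libraries and 65.0, 80.3, 71.6 and 65.7 CPM in female vehicle ones (0.18 ± 0.14), against 0.89 ± 0.12 in males. The female minus male difference was -0.71 ± 0.19 for Pdk1 and -0.81 ± 0.18 for Msrb1, each with an edgeR adjusted p of 1.

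Lipogenic genes showed the widest gap between the sexes among the pathway lists. Their median was 0.444 in females and 1.65 in males, and the median difference was -1.20. For the difference 10 of 24 had an unadjusted p under 0.05, against 3.89% of all genes. Fasn differed by 0.93 ± 0.82 in females and 3.89 ± 0.79 in males (difference -2.96 ± 1.14), and Acly by -0.30 ± 0.92 and 3.90 ± 0.87 (difference -4.20 ± 1.29, unadjusted p = 0.00557). Male CP2 libraries ranged from 1642 to 32210 CPM for Fasn and from 193 to 9347 CPM for Acly. No male library was left out in turn, so how far the male values rest on single libraries was not tested. Cholesterol synthesis had medians of -0.04 and 0.961, with 5 of 22 genes at an unadjusted p under 0.05 for the difference, and the clock list medians of 0.332 and -0.21, with 6 of 17. Fatty acid oxidation lay close in both sexes at 0.451 and 0.419, with 0 of 27 genes at an unadjusted p under 0.05 for the difference. For complex I the medians were 0.235 and 0.593 (0 of 36), yet 0 of the 36 subunits had the higher change in females (median difference -0.329). Of them 34 reached an unadjusted p under 0.05 in males and 1 in females. For complexes II to V the medians were 0.282 and 0.633 (1 of 39), with 1 of 39 higher in females (median difference -0.345). Of these 37 reached an unadjusted p under 0.05 in males and 3 in females. For the TCA cycle the medians were 0.45 and 0.555 (0 of 18).

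**Figure D4:**
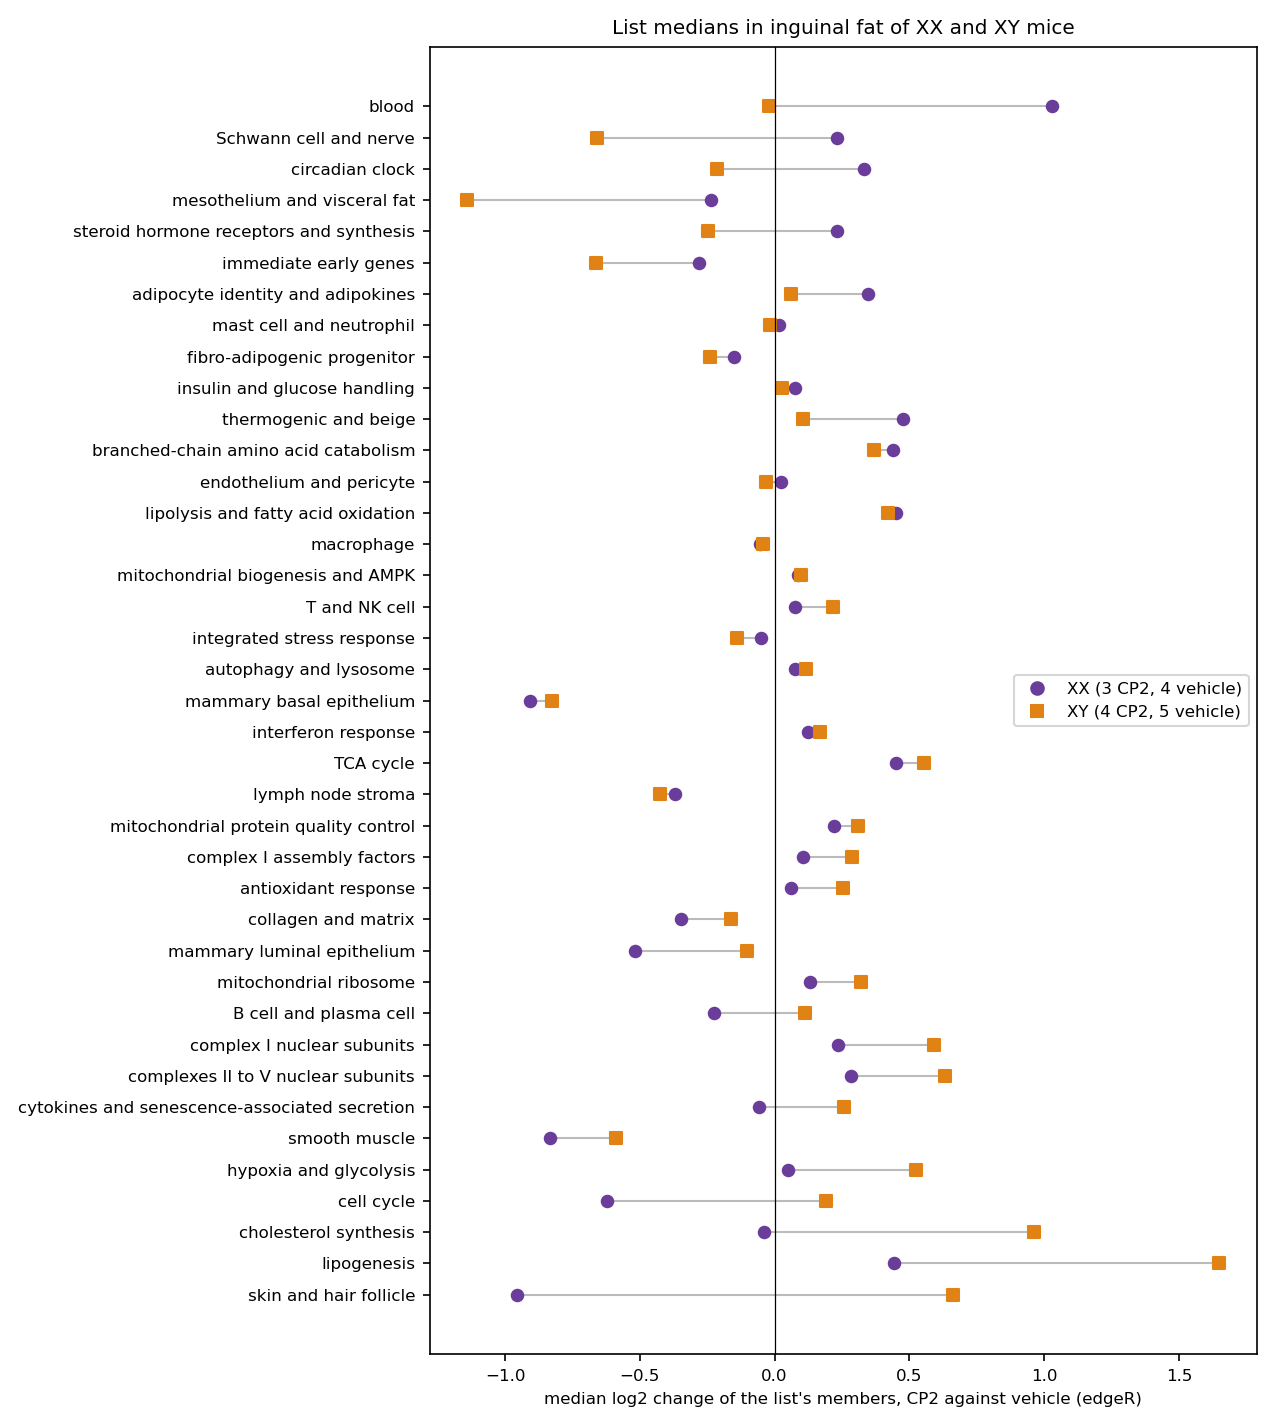
Median log2 change (edgeR, CP2 against vehicle) of 39 gene lists in inguinal fat of female (purple circles) and male (orange squares) mice, sorted by the median of the difference. Lipogenesis lies at 0.444 in females and 1.65 in males, and fatty acid oxidation at 0.451 and 0.419. No error is drawn, since list medians carry no test.

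Among the genes with the smallest p for that difference, Nnat, Prr5l and Rgs6 had female log2 changes near 0, while Wnt10b, Hephl1 and the antibody segments did not. Nnat, an imprinted gene of adipocytes, was at 1037, 501 and 561 CPM with CP2 and 853, 422, 1244 and 517 CPM with vehicle (-0.12 ± 0.60), while in males CP2 libraries were at 51.4 to 244 CPM and vehicle libraries at 797 to 2907 CPM (-3.64 ± 0.60). The difference was 3.52 ± 0.81 (unadjusted p = 0.000677, edgeR adjusted p = 1). Prr5l, a partner of mTOR complex 2 (difference 1.23 ± 0.32), and Rgs6, a regulator of G protein signalling (difference 2.003 ± 0.56), were also in this set, with log2 changes of 0.17 ± 0.24 and 0.12 ± 0.42 in females. Wnt10b, which holds back adipocyte formation, was at 1.08, 1.23 and 2.37 CPM against 0.503, 0.630, 0.619 and 0.860 CPM in females (1.25 ± 0.50) and lower in males (-1.31 ± 0.46), a difference of 2.56 ± 0.68. In the other direction Hephl1, a copper ferroxidase, had 31.0 CPM in vehicle s443 and 0.535 to 1.53 CPM in the other 6 female libraries (-3.44 ± 1.47 in females, -0.486 without s443, and a difference of -7.80 ± 1.99). The antibody segments Igkv2-112 (-5.49 ± 1.89 in females, difference -9.52 ± 2.44) and Ighv14-4 (-3.44 ± 1.07 in females, difference -4.71 ± 1.33) followed.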

How the data were processed

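RNA from inguinal fat was sequenced as TruSeq RNA v2 libraries, a kit that does not record strand, per the labels' protocols. Per the submitters' processing notes the authors used bcl2fastq, STAR 2.6.1c and featureCounts of Subread on build mm10. Neither the annotation release nor the counting options were given in the sources used here. The authors deposited raw counts per gene for 43346 genes, with no normalization, and FPKM values. The FPKM values were listed beside the counts for the fixed genes and not tested.

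The 16 fat libraries were fitted in 1 model over 4 sex by treatment groups with edgeR 4.0.16 in R 4.3.3. It used filterByExpr, TMM and robust quasi-likelihood F tests, with Benjamini-Hochberg adjustment over 19769 genes at a threshold of 0.05. Values are log2 changes ± SE, with the SE taken as the absolute log2 change over the square root of the F statistic. An SE derived this way is approximate, and that of a difference between the sexes need not follow from those of each sex. CPM are on library totals of 35 to 45.9 M counts times their TMM factors. Floors are 3 counts and cover counting error only. Gene lists were described by counts and medians, beside all genes tested, with no set test. limma 3.58.1, DESeq2 1.42.0, other scalings and filters, covariates and leaving out each female library were alternatives.

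The comparison, its gene lists and the tests were chosen with earlier results of these data known. The genes named were the 10 in each direction with the smallest p, mean CPM of 1 or more and no predicted-gene name, up to 5 genes per list by p, a fixed set that was always reported, and 5 in each direction for the difference between sexes. Which of the listed genes are shown, the promoters shown, the motifs and the muscle-score alternative were chosen after values were seen, and all 41 lists are reported. A few genes that the naming rule picks are not reported here. Only the edgeR fit of the female comparison was run on simulated counts with known changes. Those counts came from 1 common profile, without the differences in milk, muscle and lymphoid transcripts between these libraries. Overlapping genes on opposite strands cannot be told apart.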

Additional observations from a re-analysis of the deposited data

Results flagged for a closer look

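In 20 of 98 gene or list levels tested over the 4 vehicle libraries, 1 library lay far from the other 3. Its gap to the nearest, divided by the range, passed the critical value of Dixon. Chance passes that value in about 5% of groups of normal values. These levels are untransformed CPM, many follow the same library, and many genes were named for these same values. The 20 of 98 therefore cannot be compared with that 5%. Groups of 3, such as CP2, were not tested this way. Library s443 was the distant one in 14, s463 in 4, and s442 and s643 in 1 each.

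In s443 the milk list summed to 108800 CPM against 885.5 to 2066 CPM in the other vehicle libraries, and the luminal list to 5417 CPM against 988.4 to 1447 CPM. Its single genes were Csn2 at 36140 CPM, Csn3 at 8147 CPM, Wap at 2958 CPM, Wfdc18 at 2598 CPM, Lao1 at 667.8 CPM and Elf5 at 604.4 CPM. Outside the mammary lists they were Acly at 403.2 CPM, Col1a1 at 327.3 CPM, Slc7a5 at 104.1 CPM, Fkbp11 at 52.32 CPM and Hephl1 at 31.04 CPM, all the highest, and Dgat1 at 109.2 CPM, the lowest.

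In s463 the T and NK list summed to 663.1 CPM against 67.27 to 114.8 CPM. Its genes were Cd3e at 21.83 CPM, Ighv1-76 at 834.8 CPM and Ucp1 at 2.605 CPM. The other 2 values were Cfd at 3108 CPM in s442 and Cpt1b at 48.14 CPM in s643, the vehicle library with the most skeletal muscle transcripts.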

How the results depend on the processing

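No paired analysis was possible because the CP2 and vehicle libraries of fat share no sample number. The count of genes called in females was 2 with DESeq2 (the predicted gene Gm2564, adjusted p = 0.0382, and Ighv1-76, adjusted p = 0.0497, both lower with CP2), 1 with mammary and lymphoid scores as covariates (Gm2564, adjusted p = 0.00297) and 0 under the other 14 alternatives. For the female minus male difference it was 3 with DESeq2 (Nnat and Duox2, each with an adjusted p of 0.0433, and Igkv2-112, adjusted p = 0.00679), 1 with those covariates (Gm2564, adjusted p = 0.0182) and otherwise 0. At an unadjusted p under 0.05 limma-voom with quality weights gave 1506 genes in females, the L number as a factor 286, the skeletal muscle score as a covariate 260 and no low-count filter 703. Of 41 list medians 22 had the same sign under all 16 alternatives, among them the respiratory, TCA cycle, fatty acid oxidation, lipogenic, thermogenic, collagen and smooth muscle lists, and 19 changed sign at least once. The cause was not tested for any change named here.

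With the L number as a factor the median turned to 0.021 for all genes, 0.137 for cholesterol synthesis, 0.585 for cell cycle, 0.455 for cytokines, -0.157 for endothelium, 2.02 for lymph node stroma (1.35 with limma-voom) and 0.00655 for skin. In the same fit the log2 change turned to 0.496 for Acly, 0.206 for Csn2, 2.18 for Wap, -0.203 for Prr5l, -0.0117 for Lipe, 0.0279 for Aurka and 0.0722 for Mcm6. limma-voom gave 0.0394 for Acly, 0.142 for Gdf15 and 0.0827 for Emr1. The mammary and lymphoid scores gave 0.358 for Krt8, -1.48 for Myh4, -0.252 for Rgs6 and -0.459 for Cpt1b. The skeletal muscle score, chosen after seeing the data, gave 0.0305 for Atf4, 0.121 for Gdf15 and -0.0853 for Cd3e.

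Leaving out 1 library at a time, the median ran from -0.171 to 0.045 for the integrated stress response, from -0.242 to 1.6 for blood, from -0.9 to 1.66 for lymph node stroma and from -0.015 to 0.25 for steroid genes. The log2 change ran from -0.449 to 0.128 for Acly, -0.973 to 0.435 for Scd1, -1.13 to 0.249 for Lep, -0.292 to 0.166 for Atf4, -0.684 to 0.241 for Fgf21 and -0.7 to 0.213 for Gdf15. It ran from -0.86 to 0.151 for Krt8, -0.715 to 1.35 for Cd3e, -0.333 to 0.0376 for Emr1, -1.62 to 3.26 for Myh4, -0.538 to 0.214 for Nnat, -0.239 to 0.369 for Rgs6 and -0.74 to 2.73 for Cpt1b. Depth limited Gdf15, which had 5 to 13 counts per library.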
